A study of Homo sapiens with 18 samples.

Results

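Chromatin accessibility was examined at 10 genes of the NRF2 and glutathione system, NFE2L2, KEAP1, GCLC, GCLM, GSR, GSTP1, NQO1, HMOX1, TXNRD1 and SLC7A11. Every window of the deposited table that overlapped the span of one of these genes, extended by 10 kb on each side, was taken, which gave 62 of the 89428 windows. Of these, 16 were promoter windows of a member, 5 were promoter windows of another gene and 41 were distal. The genes were not chosen on their accessibility. The table holds windows with more than 2 FPKM in at least 2 libraries, so the 62 windows are the accessible part of 938 tiles that cover the extended genes, and the 10 windows that hold a canonical transcript start were all in the table.

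The libraries are ATAC-seq, in which the Tn5 transposase cuts and tags open chromatin, from 6 established human ovarian cancer cell lines with 3 libraries per line and 18 in all. The lines make up 3 pairs in which 1 line is sensitive to platinum and its partner resistant. A2780 (sensitive) is labelled as endometrial/ovarian, and CP70 (resistant) was derived from it in culture. PEA1 (sensitive) and PEA2 (resistant) came from high-grade serous disease of a single patient, before platinum and after relapse. PEO1 (sensitive) and PEO4 (resistant) came from high-grade serous disease of another patient, sampled around the development of clinical resistance, and PEO1 was itself taken after a first platinum treatment. All lines were grown in the same medium, and the labels name no drug given before the chromatin was taken. Each line is a single established culture, so a difference between the lines of a pair belongs to those lines, and resistance and line cannot be told apart within a pair.

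NRF2, the product of NFE2L2, is a transcription factor that pairs with small MAF proteins and binds antioxidant response elements, and KEAP1 holds it in the cytoplasm and marks it for degradation until electrophiles or oxidants modify KEAP1. Its known targets make glutathione (SLC7A11 imports cystine, GCLC and GCLM form the rate-limiting glutamate-cysteine ligase), keep it reduced (GSR) and conjugate it to electrophiles (GSTP1), and include the quinone reductase NQO1, the haem-degrading HMOX1 and the thioredoxin reductase TXNRD1. The system is studied in platinum resistance because glutathione can bind platinum before it reaches DNA.

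The core letters of the antioxidant response element, TGACNNNGC, were searched on both strands in the GRCh37 genome (hg19). They occurred in 31 of the 62 member windows (50%), against 35.3% of all 89428 windows. Among promoter windows they occurred in 7 of the 16 of the members (43.8%) and in 34.3% of all. Among distal windows they occurred in 21 of the 41 of the members (51.2%), against 35.6% of all windows outside promoters. A selection of these matches follows, chosen after the values were seen to show elements near known targets, the NFE2L2 start and 1 match in each of 2 windows that rose in PEA2, each 5′ to 3′ on the strand of the match with the matched letters in capitals and its distance from the canonical start, negative upstream.
HMOX1 -9073, chr22:35768002-35768030, minus strand: ctcgggaccgTGACTCAGCaggaaaaaca
HMOX1 -9044, chr22:35768031-35768059, minus strand: ctcggggcggTGACTTAGCgaaaatagac
HMOX1 -9015, chr22:35768060-35768088, minus strand: accgggaccgTGACTCAGCgaaaacagat
HMOX1 -8986, chr22:35768089-35768117, minus strand: ctctagaccgTGACTCAGCgaaaacagac
NQO1 -451, chr16:69760900-69760928, minus strand: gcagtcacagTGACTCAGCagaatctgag
GCLC -3152, chr6:53413037-53413065, plus strand: cgcctccccgTGACTCAGCgctttgtgcg
GCLC -3107, chr6:53412992-53413020, plus strand: ccccgccacgTGACTGCGCgggcccgcct
GCLM -30, chr1:94375002-94375030, plus strand: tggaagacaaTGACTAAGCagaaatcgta
GSTP1 -62, chr11:67351207-67351235, plus strand: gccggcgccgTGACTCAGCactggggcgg
TXNRD1 -95, chr12:104609448-104609476, plus strand: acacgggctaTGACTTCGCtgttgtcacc
NFE2L2 650, chr2:178128791-178128819, plus strand: agcggccccgTGACTAGGCacatttttgc
NFE2L2 11396, chr2:178118045-178118073, plus strand: accctcaaacTGACTGAGCaactattacg
TXNRD1 56588, chr12:104666131-104666159, plus strand: aaaatcattaTGACAGAGCaggtaatcgg

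The first 4 sequences lie side by side in 1 upstream window of HMOX1, which held more matches than any other member window. The letters TGACTCAGC made up 8 of the member matches outside GSR. Among them were 3 of these 4, that of NQO1, that of GSTP1 and the GCLC match at -3152. The letters of the GSR matches, including that at -87 from its start, were not counted here. SLC7A11 had no match in its start window and 2 in an intronic window. A match gives letters only, and binding of any factor was not measured here.

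Library totals ranged from 8963079 to 60435027 reads. Of these reads, 39.9% ± 0.949 (SD, n = 3) of PEO1 and 34.4% ± 1.51 of PEO4 fell in the 89428 windows, against 9.26% ± 0.832 for A2780, 13.1% ± 2.16 for CP70, 15.3% ± 2.12 for PEA1 and 18.9% ± 1.82 for PEA2. A window's FPKM therefore ran higher in the PEO lines across the table, and levels between lines are given here as FPKM and as a percentile among the 12714 windows that hold a protein-coding canonical start. Libraries with fewer reads carry more counting error. PEO1 had the smallest library totals, but its libraries held 3489443 to 4674909 reads in the windows, against 1974152 to 2825028 for CP70. Of 6 epithelial and Müllerian markers with a start window in the table, PAX8 stood at percentiles 4.11 and 7.75 for A2780 and CP70, 53.98 and 46.7 for PEA1 and PEA2 and 53.6 and 39.3 for PEO1 and PEO4. WT1, a marker of serous carcinoma, was at 16.9 and 16.6 in A2780 and CP70, 22.6 and 75.5 in PEA1 and PEA2 and 85.1 and 92.2 in PEO1 and PEO4. At EPCAM and CDH1, both epithelial, PEA1 stood at 7.44 and 6.46 beside 6.68 and 10.5 for A2780, so that at WT1, EPCAM and CDH1 the serous line PEA1 was near A2780. KRT8 and KRT18, also epithelial, were lowest in A2780 and highest in PEO4, from 5.43 to 73.1 and from 9.96 to 55.7. PEA1 stood at 36.1 and 30.6 there, so at KRT8, KRT18 and PAX8 it was well above A2780. The start windows of MUC16 and of PTPRC, CD3E and COL1A1, markers of other cells, were not in the table, and PECAM1 was not matched in the annotation.

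The start windows of the members ranked very differently. NFE2L2 stood at percentile 93.9 in PEA2 and 92.1 in CP70 and was lowest, at 56.5, in PEO1. Its inhibitor KEAP1 lay between 5.59 in PEA2 and 38.1 in PEO4. TXNRD1 was lowest of all, at 2.71 in A2780 and 3.25 in CP70, and reached 26.8 in PEA2. PEA2 held the lowest percentile of the 6 lines for 5 of the 10 genes, namely KEAP1, GCLC, GCLM, GSR and GSTP1, and the highest for 3, NFE2L2, HMOX1 and TXNRD1. The share of all start windows at which PEA2 was lowest or highest in this way was not computed, so these counts describe the 10 genes only.

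**Figure D1:**
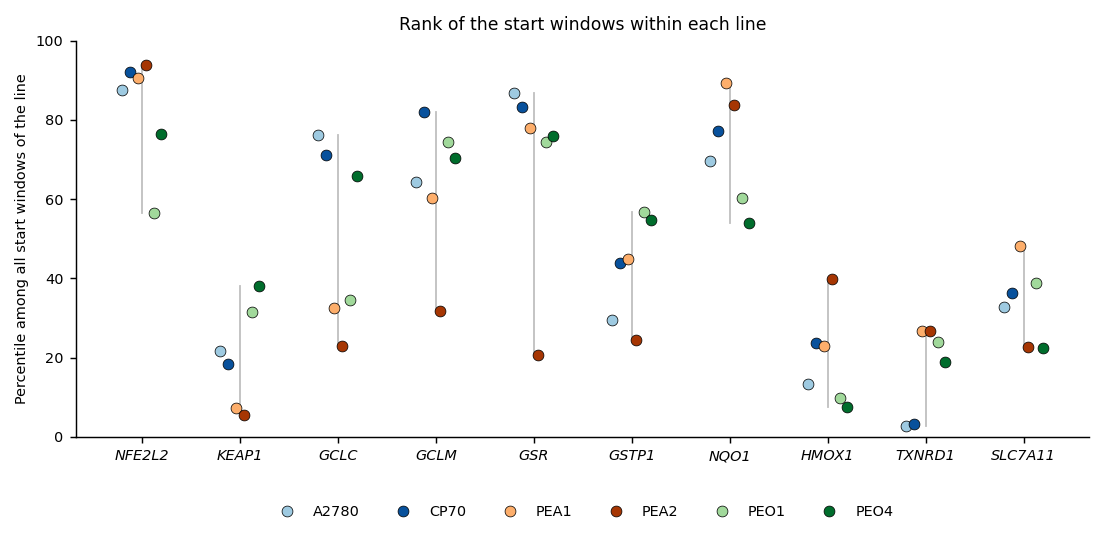
Percentile of each member's start window among the 12714 start windows of the same line (vertical axis), with 1 point per line and gene and a grey line from the lowest to the highest. PEA2 sits lowest for GCLC, GCLM, GSR, GSTP1 and KEAP1 and highest for NFE2L2, HMOX1 and TXNRD1.

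In FPKM, 9 of the 10 start windows were highest in a PEO line and 6 were lowest in A2780. Among all promoter windows, 47.0% were highest in PEO1 and 40.6% in PEO4, so this order by itself was that of the table. All 55 member windows tested differed among the 6 lines (limma F test, adjusted p below 0.05), as did 99.6% of all windows.

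For the regulators, NFE2L2 (chr2:178128900-178129900, which holds the first exon) measured 3.71, 5.002 and 2.99 FPKM in the 3 libraries of A2780 and 9.09, 6.35 and 5.57 FPKM in those of CP70. The libraries of PEA1 measured 5.99, 7.45 and 5.56 FPKM and those of PEA2 7.804, 5.32 and 7.85 FPKM, and the libraries of PEO1 measured 6.98, 8.99 and 9.25 FPKM and those of PEO4 12.5, 13.8 and 12.01 FPKM. PEO4 lay above every other library and A2780 lay below every library of the other lines, while PEA1, PEA2, CP70 and PEO1 overlapped along the order. KEAP1 (chr19:10613700-10614700) measured 0.957 ± 0.275 FPKM (SD, n = 3, as in the values that follow) in PEA2, 1.08 ± 0.428 in PEA1, 1.23 ± 0.294 in A2780, 1.596 ± 0.294 in CP70, 4.72 ± 0.374 in PEO1 and 5.44 ± 0.852 in PEO4. The first 4 of these lines overlapped in turn, as did the PEO lines, and the single gap in the order lay between CP70 and PEO1. The window next to it, centred 732 bases downstream of the start, was the more accessible, at 13.4 FPKM in PEO1 and 18.6 in PEO4.

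For glutathione synthesis, GCLC (chr6:53409600-53410600), the catalytic subunit, measured 5.97, 4.62 and 4.79 FPKM in PEO1 and 10.3, 9.31 and 10.7 FPKM in PEO4, and every library of PEO4 lay above every other library. In PEA2 it measured 1.65, 1.68 and 1.64 FPKM, below every library of the other lines, and the A2780, CP70 and PEO1 libraries overlapped along the order. GCLM (chr1:94374900-94375900), the modifier subunit, measured 3.94, 4.05 and 3.07 FPKM in PEA1 against 2.03, 1.68 and 2.17 FPKM in PEA2, and 2.56, 2.79 and 2.199 FPKM in A2780 against 6.97, 4.31 and 4.69 FPKM in CP70. The lines of both pairs were apart, and only the PEO lines, at 12.4 and 11.2 FPKM, overlapped as neighbours in the order. SLC7A11 (chr4:139163400-139164400) measured 3.56, 3.68 and 2.06 FPKM in PEA1 against 1.81, 1.503 and 1.64 FPKM in PEA2, and 6.07, 5.497 and 5.46 FPKM in PEO1 against 3.95, 3.26 and 3.09 FPKM in PEO4. It was higher in each library of the sensitive line of these pairs.

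For glutathione use, GSR (chr8:30584700-30585700) measured 5.29, 5.58 and 3.64 FPKM in PEA1 and 1.81, 1.16 and 1.77 FPKM in PEA2. PEA2 was below every library of the other 5 lines, and the PEO lines, at 12.4 and 12.6 FPKM, overlapped. GSR had the widest range of line means of the 10 start windows, 2.94 on the log2(FPKM + 0.1) scale, and HMOX1 the narrowest, 1.09. GSTP1 (chr11:67350600-67351600) measured 3.08, 3.12 and 2.69 FPKM in PEA1 against 1.704, 1.73 and 1.69 FPKM in PEA2, and 1.604, 1.600 and 1.12 FPKM in A2780 against 3.11, 2.93 and 2.51 FPKM in CP70. The libraries of the lines did not overlap in either pair.

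Among the remaining targets, NQO1 (chr16:69759900-69760900) measured 2.75 ± 0.329 FPKM in A2780, 4.87 ± 1.495 in CP70, 4.91 ± 0.434 in PEA2, 6.09 ± 0.627 in PEA1, 7.86 ± 0.519 in PEO4 and 9.101 ± 0.546 in PEO1, and only CP70 and PEA2 overlapped as neighbours. HMOX1 (chr22:35776800-35777800) ran from 0.994 ± 0.1204 in A2780 to 2.23 ± 0.156 in PEA2, and all lines above A2780 overlapped with a neighbour. TXNRD1 (chr12:104608800-104609800) measured 0.529 ± 0.0729 in A2780 and 0.579 ± 0.273 in CP70, which overlapped, 1.79 ± 0.502 in PEA2 and 2.14 ± 0.619 in PEA1, which overlapped, 2.99 ± 0.0702 in PEO4 and 3.82 ± 0.297 in PEO1. The A2780 and CP70 libraries were below all libraries of the serous lines.

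**Figure D2:**
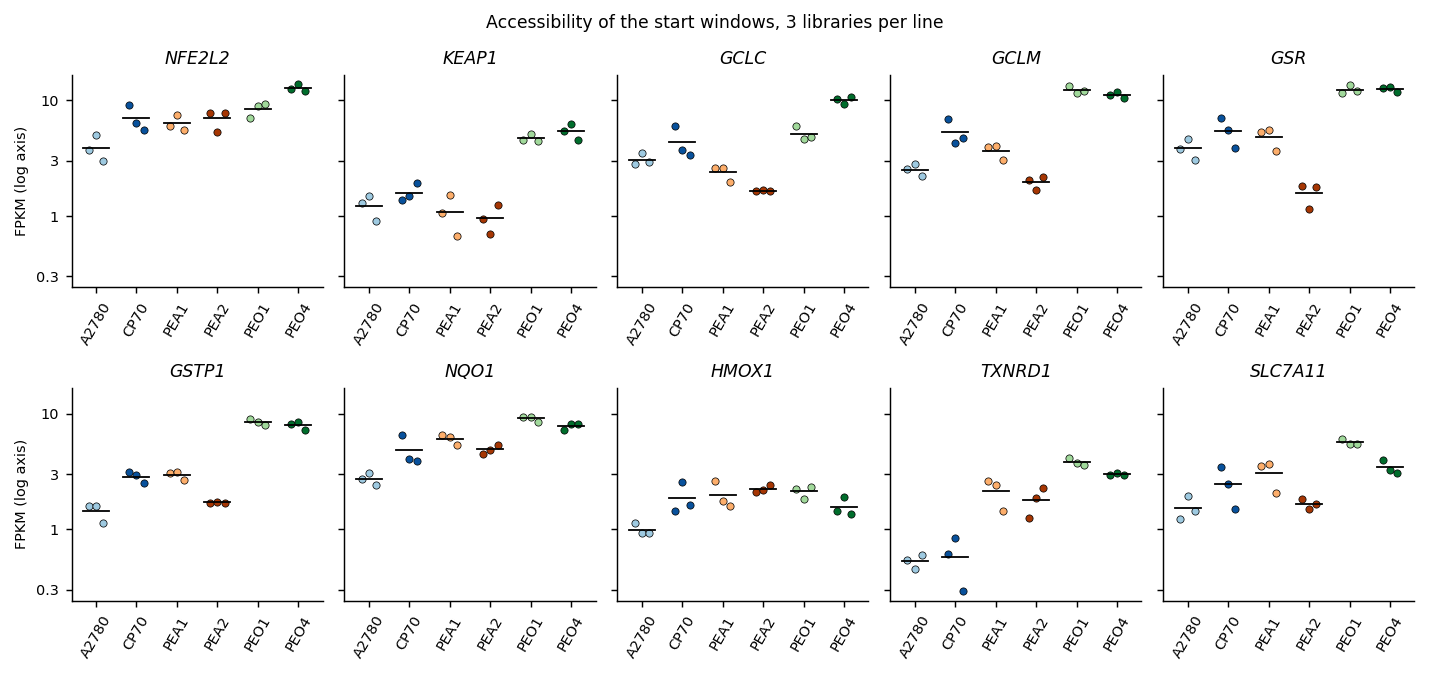
FPKM of the start window of each gene (log axis) in the 18 libraries, with 1 point per library and a bar at the mean of the 3 libraries of a line. GSR, GCLM and GSTP1 are lower in each PEA2 library than in each PEA1 library, GCLC is highest in PEO4, and TXNRD1 is below 1 FPKM in A2780 and CP70.

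The lines of each pair were then set against each other by limma on log2(FPKM + 0.1), and log2FC is given as resistant over sensitive. A window changed when its adjusted p, over all windows tested, was below 0.05, and a strong change also needed a log2FC above 2 in size and an adjusted p below 0.001. Scaling matters for these counts, because the median log2FC of all windows tested was 0.59 for CP70 over A2780, 0.31 for PEA2 over PEA1 and -0.30 for PEO4 over PEO1. Median centring of each library removes these shifts, and the median of the 5 Mb bin that holds a gene, computed without the members, is given as the local level.

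In PEA2, the start windows of 4 genes fell and none rose. GSR, which recycles oxidised glutathione, fell most (log2FC -1.56 ± 0.23 SE, limma adjusted p = 7.14e-11). GCLM (log2FC -0.87 ± 0.23 SE, limma adjusted p = 0.000336), SLC7A11 (log2FC -0.83 ± 0.23 SE, limma adjusted p = 0.000864) and GSTP1 (log2FC -0.76 ± 0.23 SE, limma adjusted p = 0.00243) fell as well. These were the 4 changed windows among 15 member promoter windows tested (26.7%), where 33.5% of all promoter windows were lower in PEA2 and 19.7% higher. The members' median log2FC was -0.20, and that of all promoter windows was -0.18. After median centring 9 of the 15 were lower, and the start windows of 7 genes were.

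The 5 Mb bin of GSR had itself a median log2FC of -1.39 in PEA2, close to the -1.56 of the start window. The bins of GCLM, GSTP1 and SLC7A11 were at -0.28, -0.55 and -0.54. With the bin median removed, the start windows were at -0.37 for GSR, -0.64 for GCLM, -0.35 for GSTP1 and -0.08 for SLC7A11. Copy number was not measured, and its part in the GSR values was not tested. NFE2L2 did not pass (log2FC 0.13 ± 0.23 SE, limma adjusted p = 0.639), and its bin had a median of 0.76. The values for GCLC (log2FC -0.50 ± 0.24 SE, limma adjusted p = 0.053) and KEAP1 (log2FC -0.13 ± 0.28 SE, limma adjusted p = 0.698) did not pass.

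In PEO4, the start windows of GCLC (log2FC 0.97 ± 0.13 SE, limma adjusted p = 5.91e-08) and NFE2L2 (log2FC 0.61 ± 0.12 SE, limma adjusted p = 4.28e-05) rose and that of SLC7A11 fell (log2FC -0.71 ± 0.16 SE, limma adjusted p = 0.00012). Over all 16 member promoter windows, 5 rose (31.2%) and 2 fell (12.5%), where 24.9% of all promoter windows were higher and 32.3% lower. The 5 were the GCLC start and the 4 promoter windows of NFE2L2, which share a locus. The NFE2L2 window centred 128.6 kb upstream of the canonical start is also a promoter window of AGPS. The second window that fell, at -1.21, was a promoter window of TXNRD1 about 69.9 kb inside the gene. The bin of GCLC was at 0.53, that of NFE2L2 at 0.59 and that of SLC7A11 at -1.02, lower than the SLC7A11 start itself. The other subunit of the ligase, GCLM, had a log2FC of -0.15 (adjusted p = 0.251 by limma), and GSR of 0.02 (adjusted p = 0.862).

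In CP70, 8 of 14 member promoter windows were higher (57.1%) and none lower in FPKM, where 44.9% of all promoter windows were higher and 1.47% lower, but after median centring none of the 14 passed and edgeR on the recovered reads called 1. The largest of the start windows were GCLM (log2FC 1.03 ± 0.29 SE, limma adjusted p = 0.00247) and GSTP1 (log2FC 0.95 ± 0.26 SE, limma adjusted p = 0.00175), in bins at 0.71 and 0.86. Relative to the median of all windows these were 0.45 and 0.37. Without replicate 1 of A2780 the 8 became 4, and without replicate 3 of A2780 they became 3. TXNRD1 was under the limit of 1 FPKM in this pair and was not tested at its start.

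**Figure D3:**
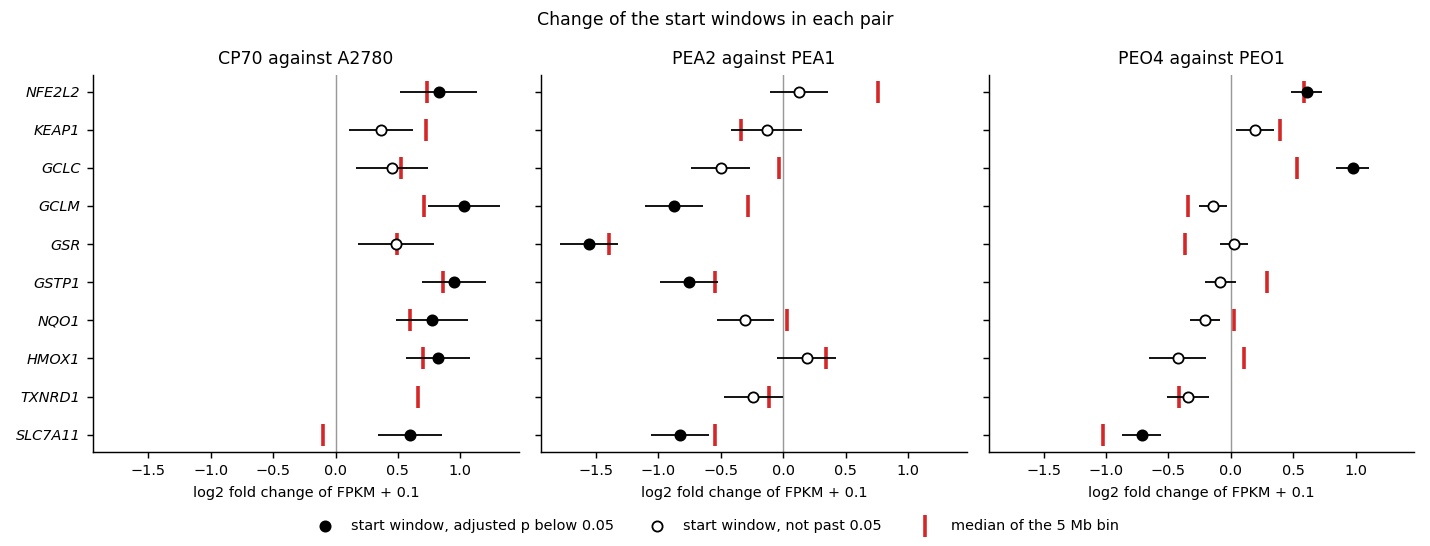
log2 fold change (horizontal axis, ± SE) of the start windows in the 3 pairs, filled where the limma adjusted p was below 0.05, with a red bar at the median of the gene's 5 Mb bin. In CP70 most points sit near their red bar, in PEA2 the NFE2L2 point is below its bar and GSR near its bar, and in PEO4 GCLC is above its bar.

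The strong changes among the members were 6 of 58 windows in the PEA pair (all distal, 12.7% of all windows), 0 of 53 in the PEO pair (8.49% of all) and 0 of 30 in the A2780 pair (0.797% of all). By limma at an unadjusted p below 0.05, with no limit on size, 10 of 14 promoter and 7 of 12 distal windows passed in the A2780 pair. In the PEO pair 7 of 16 and 22 of 32 passed. Over the whole table, 9837 of 17335 promoter windows and 12124 of 19793 others passed in the A2780 pair, and 11940 of 19899 and 42451 of 57755 in the PEO pair. By edgeR on the recovered reads there were 0 strong changes in both pairs as well. Of the 6 strong windows, 4 rose and 2 fell in PEA2. The letters TGACNNNGC occurred in 5 of them and not in the window with the largest change, that of NFE2L2 12.7 kb from the start. With a pseudocount of 1 in place of 0.1 none of the 6 passed the limit on size, and with the median of the 5 Mb bin removed 2 did, the NFE2L2 window 12.7 kb from the start and the TXNRD1 window 56.4 kb from it.

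Of the rising windows, 3 lay at NFE2L2. The window 12.7 kb downstream of the start (chr2:178116300-178117300), over an exon with UTR of an alternative transcript, measured 0.513, 0.592 and 0.671 FPKM in PEA1 and 6.16, 4.39 and 5.37 FPKM in PEA2 (log2FC 2.96 ± 0.24 SE, limma adjusted p = 2.93e-33). The means of the other lines were 0.332 in A2780, 0.6196 in CP70, 0.342 in PEO1 and 0.963 in PEO4, so that accessibility of this size was seen in PEA2 alone among these lines. The window that overlaps it by 101 bases (chr2:178117200-178118200), which holds the NFE2L2 sequence shown at 11396, measured 0.545, 0.841 and 0.384 FPKM in PEA1 and 4.12, 2.95 and 2.35 FPKM in PEA2 (log2FC 2.25 ± 0.25 SE, limma adjusted p = 1.48e-17). The last of the 3, 73.7 kb upstream of the start (chr2:178202700-178203700) and named after its values were seen, had a log2FC of 2.07 and rose in PEO4 as well, by 1.09 (adjusted p = 0.00278 by limma).

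Over the NFE2L2 gene extended by 10 kb, 10 of 13 distal windows rose in PEA2 and none fell, where 52.4% of all windows outside promoters rose. Of these 10, the window 132.2 kb upstream of the start lay outside the gene. None of its 4 promoter windows passed, with log2FC between 0.13 and 0.29. PEA2 had the highest mean of the 6 lines in the same 10 windows, where it was highest in 19.8% of all windows outside promoters. In 8 of the 10 its 3 libraries lay above every other library, and no share over all windows was computed for this. Some of the 10, such as those 12.7 and 11.8 kb from the start, passed 2 FPKM in PEA2 libraries alone. They were in the table through PEA2, so its rank there was partly set by that filter. In PEO4, 6 of the 8 distal windows tested rose, where 20.8% of all windows outside promoters did. Of these 6, the windows 53.2 and 51.4 kb downstream and 133.1 kb upstream of the start lay outside the gene. All 4 promoter windows rose, including the window shared with AGPS, where 24.9% of all promoter windows rose. PEO4 exceeded every other library in these 4 windows, and no share over all windows was computed for this. A window 1.7 kb upstream of the start (chr2:178130700-178131700) measured 2.09, 2.43 and 2.17 FPKM in PEA2 and 0.801, 0.841 and 0.479 FPKM in PEA1, against 0.468 FPKM on average in PEO4 (log2FC 1.56 ± 0.26 SE, limma adjusted p = 9.48e-09). The bin of NFE2L2, with a median of 0.76 in PEA2 and 0.59 in PEO4, moved the same way as these windows. With the bin median removed, the 10 distal log2FC in PEA2 ran from -0.03 to 2.23, and 4 of them were at most 0.24. The 6 in PEO4 then ran from 0.05 to 0.75. The 4 promoter windows in PEO4 then ran from 4.7e-05, at the start window, to 0.21.

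**Figure D4:**
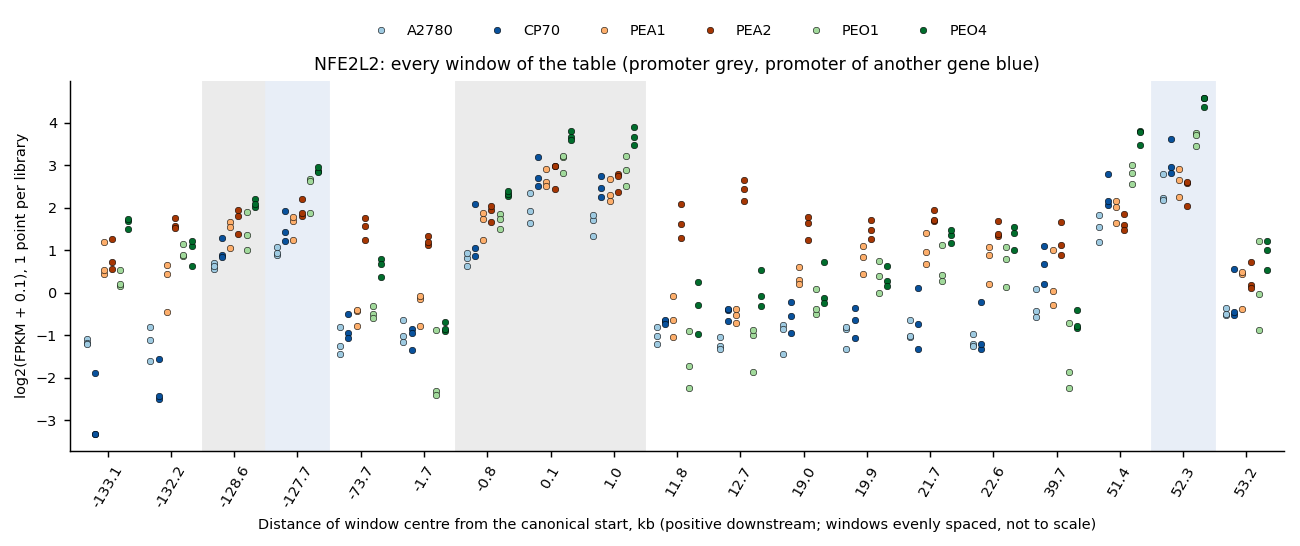
All 19 windows of NFE2L2, ordered by distance of the window centre from the canonical start in kb, with log2(FPKM + 0.1) of each of the 18 libraries; promoter windows are shaded grey and those of another gene blue. PEA2 stands above all other libraries at 11.8 and 12.7 kb, and PEO4 is highest in the grey windows.

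The TXNRD1 window 56.4 kb inside the gene (chr12:104665500-104666500, intron) measured 0.288, 0.312 and 0.384 FPKM in PEA1 and 3.13, 1.85 and 2.62 FPKM in PEA2 (log2FC 2.60 ± 0.29 SE, limma adjusted p = 3.13e-18), while the means of the other lines were between 0.188 FPKM in PEO4 and 0.3998 in PEO1. This window passed the filter of more than 2 FPKM through PEA2 libraries alone, so its rise there was partly set by that filter. Other windows of the gene moved the other way in PEA2, with 3 of its 11 distal windows higher and 5 lower. The lower ones included the windows 72.6 and 73.5 kb inside the gene (-1.12 and -1.30). In PEO4 the intronic window 4.2 kb past the start (chr12:104613300-104614300) fell from 3.54, 3.05 and 3.34 FPKM in PEO1 to 0.9302, 0.816 and 1.15 FPKM (log2FC -1.69 ± 0.23 SE, limma adjusted p = 4.08e-08).

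The most accessible window of TXNRD1 was not its canonical start but the promoter window of shorter transcripts 70.8 kb downstream (chr12:104679900-104680900). It measured 14.1 ± 0.766 FPKM in PEO1 and 12.5 ± 0.501 in PEO4, 4.09 ± 0.816 in PEA1, 3.52 ± 0.527 in PEA2, 2.41 ± 0.387 in CP70 and 1.64 ± 0.386 in A2780, above the canonical start window of the same line in every line. The log2FC of this window was 0.54 in CP70, -0.20 in PEA2 and -0.17 in PEO4, and none passed (adjusted p = 0.064, 0.442 and 0.159 by limma).

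**Figure D5:**
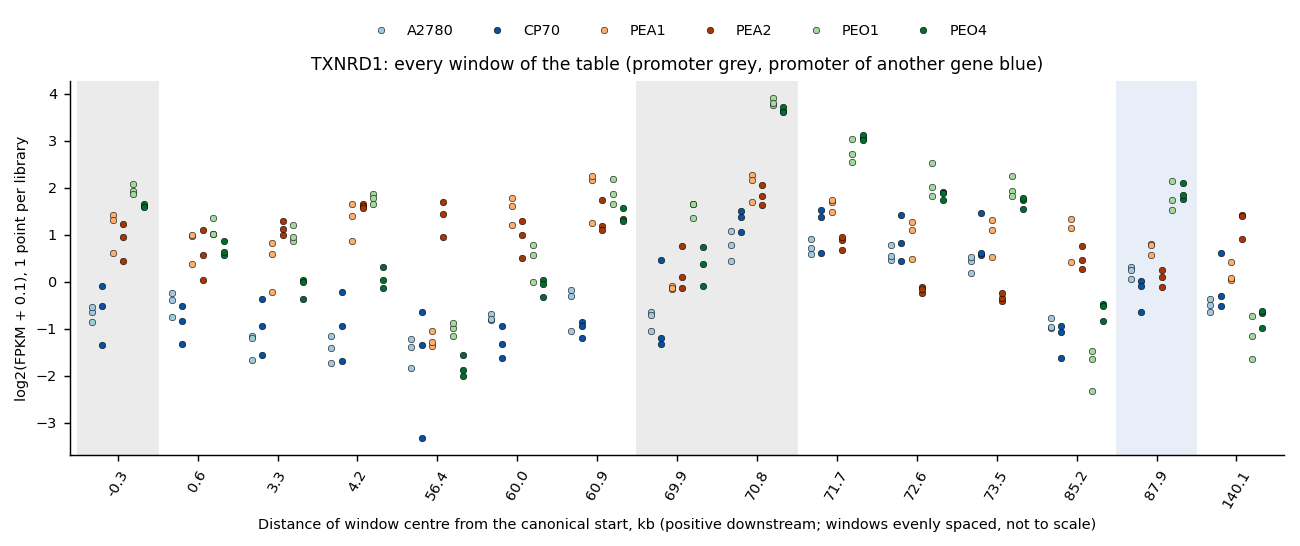
All 15 windows of TXNRD1, ordered by distance of the window centre from the canonical start in kb, with log2(FPKM + 0.1) of each of the 18 libraries; promoter windows are shaded grey and that of another gene blue. The highest values lie at 70.8 kb in PEO1 and PEO4, and PEA2 alone is raised at 56.4 kb.

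The 2 strong windows that fell in PEA2 were neighbouring intronic windows of GSR. The first (chr8:30580200-30581200) measured 3.88, 4.58 and 2.97 FPKM in PEA1 and 0.934, 0.925 and 0.577 FPKM in PEA2 (log2FC -2.11 ± 0.24 SE, limma adjusted p = 2.72e-17), and the second (chr8:30581100-30582100) measured 3.49, 3.396 and 2.301 FPKM in PEA1 and 0.4397, 0.5202 and 0.666 FPKM in PEA2 (log2FC -2.29 ± 0.26 SE, limma adjusted p = 7.04e-18). PEA1 exceeded every other library at both. The second window passed the filter of more than 2 FPKM through PEA1 libraries alone, so the rank of PEA1 and the fall there were partly set by that filter. With the median of the 5 Mb bin removed, neither passed as a strong change. All 4 GSR distal windows tested fell in PEA2, and in PEO4 3 fell and 1, the first of these, rose (1.09, adjusted p = 0.00237 by limma).

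Over all distal windows of the members, 16 of 38 rose in PEA2 (42.1%) and 11 fell (28.9%), where 52.4% of all windows outside promoters rose and 16.5% fell. After median centring the split was 11 higher and 18 lower. In PEO4, 13 of 32 rose (40.6%) and 9 fell (28.1%), where 20.8% of all windows outside promoters rose and 50.4% fell. After median centring it was 16 higher and 6 lower. In CP70, 7 of 12 were higher (58.3%), where 49.7% of all were higher and 3.02% lower, and after median centring none of the 12 passed, nor did any by edgeR. Without replicate 1 or replicate 3 of A2780 the 7 became 4.

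Distal windows of the remaining genes followed their start windows in part. Some of these lie next to the start window, such as that centred 0.7 kb inside GCLC, which overlaps it by 101 bases. At GCLC the windows centred 0.7 kb inside (chr6:53408700-53409700) and 2.9 kb upstream (chr6:53412300-53413300), the latter with the GCLC sequences shown above, rose in PEO4 (log2FC 1.07 and 0.89, adjusted p = 2.58e-08 and 2.89e-07 by limma). The upstream window measured 4.55, 5.67 and 6.13 FPKM in PEO1 and 10.1, 9.98 and 10.3 FPKM in PEO4, with no overlap. At GCLC the windows 70.4 and 71.3 kb upstream rose in PEA2 (0.71 and 0.98), against the direction of its start window, whose own value did not pass.

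The HMOX1 window with the run of 4 matches (chr22:35767800-35768800, 8.8 kb upstream) measured 0.976, 1.06 and 0.959 FPKM in A2780 and 2.65, 1.44 and 2.26 FPKM in CP70 (log2FC 0.97 ± 0.25 SE, limma adjusted p = 0.00103), and relative to the median of all windows the difference was 0.39. It had the highest mean of the 6 lines in CP70, the single member window of which this was true. In PEA2 its log2FC was 0.57 (adjusted p = 0.0417 by limma), which no longer passed without replicate 1 or replicate 3 of either line, and in PEO4 0.49 (adjusted p = 0.212). The intronic SLC7A11 window 42.8 kb inside the gene (chr4:139120200-139121200) fell in PEO4 from 5.97, 5.06 and 4.35 FPKM to 2.21, 1.97 and 2.09 FPKM (log2FC -1.24 ± 0.18 SE, limma adjusted p = 1.03e-07). NQO1 had no distal window in the table, and its second promoter window, which holds its sequence shown above, had log2FC values of 0.91 (CP70), -0.12 (PEA2) and -0.42 (PEO4). The 5 promoter windows of other genes inside the extended spans belonged to HNRNPA3, AGPS, DNTTIP2, MCM5 and EID3.

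The difference between pairs was tested directly, with a call where the log2FC differed by more than 1 at an adjusted p below 0.05. Between the A2780 and PEA pairs, 22 of 50 member windows differed, where 46% of all windows did. Between the A2780 and PEO pairs it was 14 of 47 (37.1% of all) and between the PEA and PEO pairs 19 of 60 (56.2% of all). At GSR the start window differed by 1.58 between the PEA and PEO pairs. With the bin medians removed the value of this difference depended on the windows that made up the bin. It was 1.68 where they passed the limit of 1 FPKM over the 4 lines together, and 0.96 where they passed it within each pair (-0.37 in PEA2 and 0.59 in PEO4). At GCLC the start window differed by 1.47, and by 1.20 and 1.08 with the bin medians removed in these ways. These pairs of comparisons share the libraries of a line pair and are not independent of each other.

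A last comparison asked whether resistant lines differed from sensitive lines in all pairs together, with 6 line means as the values and each pair as a block. At this level 0 of 55 member windows passed, as did 0% of all 74141 windows by limma, and 1 member window was below an unadjusted p of 0.05. This was the NFE2L2 window 12.7 kb downstream of the start, with a log2FC of 1.66 over the pairs and an unadjusted p of 0.024 by limma. By the same fit, 1.38% of all windows were below an unadjusted p of 0.05. When the 18 libraries were taken as replicates instead, 10 of the 55 passed (18.2%), where 10.6% of all windows did, and the spread is then that between libraries rather than between pairs.

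The start windows whose values over the 18 libraries followed GSR most closely were those of CDK4, MAN1B1 and GTF2E2, with Pearson correlations of 0.989, 0.988 and 0.987 of log2(FPKM + 0.1), and those that followed TXNRD1 were ZFHX4, GRIK1 and ADAMTS15, with 0.972, 0.971 and 0.969. The libraries of a line share that line's level of FPKM, and the median correlation over all 12714 start windows was 0.739 for GSR and 0.648 for TXNRD1.

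Of 69 other genes of the pathway, 63 had a start window in the table. In PEA2 11 rose and 23 fell of 63 tested, in PEO4 21 rose and 12 fell of 62, and in CP70 25 were higher and 2 lower of 55 in FPKM. Over all promoter windows 19.7% rose and 33.5% fell in PEA2, 24.9% rose and 32.3% fell in PEO4, and 44.9% were higher and 1.47% lower in CP70, and the median log2FC of the list was -0.37, 0.21 and 0.64 in PEA2, PEO4 and CP70, against -0.18, -0.06 and 0.58. The counts in PEA2 and CP70 were near those shares. The list held 6 groups of genes, whose counts are descriptions to be read against the same shares, and no group was tested against other genes. The 5 genes of haem and iron handling all fell in PEA2, among them the ferritin chains FTL (log2FC -1.68, adjusted p = 2.05e-12 by limma) and FTH1 (-1.06), and 3 of the 5 rose in PEO4. Of the NRF2 partners and regulators, 3 of 8 fell in PEA2, namely MAFG, a small MAF partner (-1.22), NFE2L1, a relative of NRF2 (-1.30) and BACH1, a repressor at the same elements (-0.49, adjusted p = 0.0486 by limma). The same 3 rose in PEO4, with BACH1 at 1.05 (7.37 to 15.4 FPKM), NFE2L1 at 0.75 and MAFG at 0.70.

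Among the genes that rose in PEA2 were GLRX, a glutaredoxin (1.03 to 4.91 FPKM, log2FC 2.26), AKR1B10, an aldo-keto reductase (0.6402 to 2.52, 1.85), and ME1, the malic enzyme that makes NADPH (4.11 to 10.8, 1.39). GLRX and ME1 fell in PEO4, by 1.20 and 0.63 on the log2 scale, and AKR1B10 was under the limit of 1 FPKM there. The AKR1B10 window passed the filter of more than 2 FPKM through PEA2 libraries alone, so its rise in PEA2 was partly set by that filter. Of the 6 genes of NADPH supply, 2 rose and none fell in PEA2, and 1 rose and 3 fell in PEO4. In the thioredoxin system, 5 of 11 fell and none rose in PEA2, where 33.5% of all promoter windows fell, with PRDX5 at -1.10 and PRDX1 at -0.91, and in PEO4 3 rose and 3 fell. In CP70, MGST1, a microsomal glutathione transferase, was the gene with the largest fall (-1.76, adjusted p = 4.9e-09 by limma), against a list median of 0.64.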

How the data were processed

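ATAC-seq was measured in 18 libraries of 6 cell lines, 3 per line, and the labels gave the line and number of each library. Nothing states that the 3 libraries of a line came from separate cultures, so p-values measure only the spread between these libraries, which may be technical. The authors removed duplicates with Picard, aligned reads to hg19 with Bowtie2 (versions not given in the sources used here), kept unique alignments and counted reads in windows tiling the genome. The sources used here name no Tn5 offset of the read ends. The authors deposited FPKM per window, made from counts and library totals. Windows all spanned 1001 bases at 900-base steps, so the deposited values equal RPM divided by a constant. In all 18 columns 100% of the values came out as whole reads, which gave each library's total. Columns of other samples numbered 0.

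Gene spans and starts came from GENCODE release 44 on GRCh37, the same build. A promoter window has its centre at most 1 kb before or 100 bp after the start of a basic protein-coding transcript, or holds the canonical start. Where neighbouring windows both held the canonical start, the one of nearest centre was taken. The GCLM window centred 0.5 kb inside the gene therefore counts as distal, though it holds the start. Pairs were compared on log2(FPKM + 0.1) with limma 3.58.1 (lmFit, eBayes with trend) in R 4.3.3, over all windows with a mean above 1 FPKM in the libraries compared, with Benjamini-Hochberg adjustment over all of them. The fit was tested on simulated data. The pseudocount understates changes of low windows. The study weighted counts, and no such weights were used here. The trend sets the variance by the mean level of a window and gives no weight to a library by its depth. Named windows were the 10 canonical starts, the distal window of highest line mean per gene and the strong changes, up to 4 per pair, and other windows named in the text were chosen after their values were seen. Genes like GSR and TXNRD1, the widest in range, were the 3 start windows of highest correlation. The members, the gene lists and the tests were chosen with earlier results of these data known. Alternatives were a pseudocount of 1, no filter, a mean above 2 FPKM, the study's upper limit on depth, median centring, quantile normalization, subtraction of the 5 Mb bin median, edgeR 4.0.16 on the recovered reads, the replicate number as a block, the 18 libraries as replicates, a 5 kb extension, canonical starts alone and leaving out each library in turn. No molecular identifiers were used, so read numbers describe counting error only. Repeated sequence gives no signal in unique alignments. Replicate libraries held no identical values, and none were merged.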

Additional observations from a re-analysis of the deposited data

Results flagged for a closer look

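Of the windows named by rule, 29 tests of a difference between pairs passed with a size above 1, and each is given as the log2FC of the later-named pair minus that of the earlier. Between the A2780 and PEA pairs, 12 of 14 were lower in the PEA pair. The start windows differed by -2.04 at GSR, -1.90 at GCLM, -1.70 at GSTP1, -1.43 at SLC7A11 and -1.07 at NQO1. Near the starts, the window 0.5 kb inside GCLM differed by -1.50, that 0.7 kb inside GSTP1 by -1.42 and that 0.7 kb inside KEAP1 by -1.15. The GSR introns differed by -2.73 and -2.54, the TXNRD1 window 71.7 kb inside the gene by -1.23 and the window 51.4 kb past the NFE2L2 start by -1.12. The NFE2L2 windows 12.7 and 11.8 kb from the start were higher in the PEA pair, by 2.22 and 1.92. After median centring 11 of the 14 remained past the limits. With bin medians removed 3 were above 1 in size in the fit over both pairs, the 3 NFE2L2 windows, and of 10 that had a value in each pair's own fit 2 were.

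Between the A2780 and PEO pairs, 5 windows were lower in the PEO pair, by -1.31 at GCLM 0.5 kb inside, -1.17 at the GCLM start, -1.03 at the GSTP1 start, -1.25 at the HMOX1 start and -1.31 at the SLC7A11 start. None of the 5 remained past the limits after median centring, with adjusted p between 0.0599 and 0.254 by limma.

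Between the PEA and PEO pairs, 8 of 10 were higher in the PEO pair. The GSR introns differed by 3.20 and 3.17 and the GSR start by 1.58. The GCLC start differed by 1.47 and the window 0.7 kb inside GCLC by 1.56. The window 0.7 kb inside GSTP1 differed by 1.10, the TXNRD1 window 71.7 kb inside the gene by 1.10 and the window 51.4 kb past the NFE2L2 start by 1.21. The NFE2L2 window 12.7 kb from the start and the SLC7A11 window 42.8 kb inside the gene were lower, by -1.68 and -1.76. After median centring 8 of the 10 remained past the limits, and with bin medians removed 8 were above 1 in size in the fit over both pairs. Of 8 with a value in each pair's own fit 6 were, and the GSR start was at 0.96. In these comparisons 56.2% of all windows differed, and the GSR bin of the PEA pair (median log2FC -1.39) moved with the GSR values.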

How the results depend on the processing

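Of the counts over member windows, those of the A2780 pair depended most on scaling. Its 8 higher promoter windows became 5 with a mean above 2 FPKM, 4 under the upper depth limit, 0 after median centring, 1 after quantile normalization, 0 with the 5 Mb bin median removed and 1 by edgeR, and its 7 distal windows became 3, 4, 0, 0, 0 and 0 under the same settings. Leaving out 1 library gave 3 to 9 promoter and 4 to 8 distal windows in this pair. In the PEA pair the 6 strong changes became 0 with a pseudocount of 1, 2 with a mean above 2 FPKM and 2 with the bin median removed. The 4 lower promoter windows became 9 after median centring, 10 after quantile normalization, 9 with the bin median removed and 9 by edgeR, all lower, and the 27 distal windows became 11 with a mean above 2 FPKM, which tests fewer windows. In the PEO pair the 7 promoter windows became 4 under the upper depth limit and 3 for the canonical starts alone, and the 22 distal windows became 14 with a mean above 2 FPKM and 11 with the bin median removed. The 55 windows that differed among lines became 27 with a mean above 2 FPKM, where 27 were tested. The count of windows that differed between the A2780 and PEA pairs, 22, became 14 with a pseudocount of 1, 10 with a mean above 2 FPKM and 7 with the bin median removed, and its split turned from 4 higher and 18 lower in the PEA pair to 5 higher and 2 lower under the last. Between the A2780 and PEO pairs the count of 14 became 6, 6 and 4 under the same settings and 9 by edgeR. This split turned from 1 higher and 13 lower in the PEO pair to 10 higher and 2 lower after median centring, 9 and 3 after quantile normalization and 6 and 3 by edgeR. The 19 of the PEA and PEO pairs became 10 with a mean above 2 FPKM, 29 after median centring and 32 by edgeR. Over the 3 pairs, the count of 0 became 10 with the 18 libraries as replicates.

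Single values turned sign under the bin median for NFE2L2 (-0.60) at its start in PEA2, and in PEO4 for GCLM at its start (0.40) and 0.5 kb inside it (0.18) and for SLC7A11 at its start (0.34). The HMOX1 window 8.8 kb upstream reached -0.038 in PEA2 after quantile normalization and the SLC7A11 start reached -0.010 in CP70 by edgeR. Causes were not tested. Of the 344 values of named windows obtained by leaving out 1 library, 305 kept their direction and side of the threshold.

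The replicate block gave 6 promoter windows in the A2780 pair against 8 without it, and 4 and 7 as before in the PEA and PEO pairs. Same-numbered libraries of a pair correlated at -0.41, -0.17 and -0.04 in their deviations for A2780 and CP70, and at most 0.045 for PEO1 and PEO4, so the numbers were taken as names. In the A2780 and PEA pairs not every library correlated best with its own number. PEO1 had the smallest library totals, and CP70 had fewer reads in the windows than PEO1. A change in such libraries can be missed at this depth.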
